A study of Rattus norvegicus with 4 samples.

Results

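The family of miR-148 and miR-152 was examined in small RNA libraries of rat growth plate chondrocytes and of the matrix vesicles (MVs) they deposit. Its members were taken by name, as every mature product numbered miR-148 or miR-152 with any letter or arm, which gave 6 products of 3 hairpin genes among 740 miRNA names. The guide strands are the 3p products rno-miR-148a-3p, rno-miR-148b-3p and rno-miR-152-3p, written below without the species prefix, and the 5p products of the same hairpins are usually called passenger strands. The question put to the data was how far miRNAs with one seed differ in their share of reads between vesicles and cells.

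The cells were isolated from costochondral cartilage of male Sprague Dawley rats, grown without a further treatment in medium with exosome-depleted fetal bovine serum and ascorbic acid, and used confluent at passage 4. RC-cells came from the resting zone, the least mature cartilage, and GC-cells from the growth zone, which holds prehypertrophic and upper hypertrophic chondrocytes. RC-MVs and GC-MVs are the vesicles of those cultures, released with trypsin and pelleted by spins of rising speed. Each of the 4 groups had 1 library, and neither the ages of the rats nor whether tissue of several rats was pooled is given in the sources used here. No difference below has a replicate check and no p-value was computed.

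A miRNA recognises its target mRNAs mainly through its seed, bases 2 to 8 from the 5′ end, so miRNAs with the same seed are expected to share many targets. The family is known for repressing DNMT1, the enzyme that maintains DNA methylation, and miR-148a has been linked to restraint of hypertrophic and matrix-degrading genes in articular chondrocytes. A hairpin is cut into a 5p and a 3p arm, of which the guide is loaded into Argonaute and its partner is mostly degraded.

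The mature sequences are shown because the guides share their seed and differ at few bases, with the seed in capitals. They are from RefSeq on the GRCr8 assembly, which held 5 of the 6 products and did not list miR-148b-5p. The first 3 are the guides and the last 2 are passenger strands.
miR-148a-3p: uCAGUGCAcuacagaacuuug
miR-148b-3p: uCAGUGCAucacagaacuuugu
miR-152-3p: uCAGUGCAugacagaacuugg
miR-148a-5p: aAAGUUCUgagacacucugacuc
miR-152-5p: aGGUUCUGugauacacuccgacu

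The seed CAGUGCA was found in 3 mature rat miRNAs of the RefSeq table, the 3 guides themselves. Over the first 21 positions, counted from the 5′ end, 18 were identical in all 3 guides. With the base of the first-named miRNA written first, miR-148a-3p and miR-148b-3p differed by C9U and U10C. miR-148a-3p and miR-152-3p differed by C9U, U10G and U20G, and miR-148b-3p and miR-152-3p by C10G and U20G. Position 10 thus distinguishes all 3 guides, and position 20 sets miR-152-3p apart from both miR-148 guides. The passenger strands carried other seeds, AAGUUCU in miR-148a-5p and GGUUCUG in miR-152-5p, which no other mature miRNA in the table shared.

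On GRCr8 the hairpin of Mir148a lies on chromosome 4 (minus strand, chr4:81664431-81664527), in the span of no other gene of the table. The hairpin of Mir148b lies on the plus strand of chromosome 7 (chr7:136299870-136299966) within the span of Copz1, a gene for a coatomer subunit on the same strand. Mir152 lies on the plus strand of chromosome 10 within the span of Copz2, which encodes the related coatomer subunit. The mature miR-152-5p is at chr10:82329397-82329419 and miR-152-3p at chr10:82329435-82329455. These positions were not joined to the counts, which rest on the earlier Rnor_6.0 build. The hairpin of Mir148a is shown because its arms behaved differently in vesicles, with both mature strands in capitals and the 5p strand first.
Mir148a: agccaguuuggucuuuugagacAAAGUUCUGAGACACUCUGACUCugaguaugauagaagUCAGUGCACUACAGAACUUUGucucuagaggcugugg

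The libraries held 6517329 miRNA reads (RC-cells) and 7414467 (GC-cells) for the chondrocytes, against 1108821 in RC-MVs and 982543 in GC-MVs. Values are given as the percent of all miRNA reads of a library, and intervals (Wilson for shares) are at the 95% level and reflect counting error alone. Every product of the family had 1 locus in the annotation and at least 21 reads in each library. A percent is relative, so a lower share can come from fewer copies of a miRNA or from more of the others, and in bulk libraries fewer cells of a type and less RNA per cell cannot be told apart. Guides that differ at 2 or 3 bases could have exchanged some reads in the alignment, and the treatment of such reads is not given in the sources used here. The cartilage miRNA miR-140-3p, processed from an intron of Wwp2, was at 0.383% in RC-cells and 0.506% in GC-cells, against 0.951% in RC-MVs and 0.794% in GC-MVs, while its partner strand miR-140-5p was at 0.0710% and 0.0808%, against 0.00848% and 0.0216%. In the same list miR-455-5p was lower and miR-455-3p higher in the vesicles of both zones, and miR-675-5p had 0 reads in all 4 libraries.

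In cells, miR-148a-3p was the most abundant member of the family in both zones. It had 174303 reads, or 2.67%, in RC-cells and 187622 reads, or 2.53%, in GC-cells. In the vesicles it had 5540 reads, or 0.50%, in RC-MVs and 12940 reads, or 1.32%, in GC-MVs. Both vesicle libraries were below both cell libraries, and RC-MVs were the lowest of the 4. The rank of miR-148a-3p among all miRNAs was 5 in RC-cells and 4 in GC-cells, against 27 in RC-MVs and 6 in GC-MVs.

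miR-148b-3p, processed from the Copz1 locus, was far less abundant. It had 6660 reads (0.102%) in RC-cells, 228 reads (0.0206%) in RC-MVs, 7071 reads (0.0954%) in GC-cells and 479 reads (0.0488%) in GC-MVs. The order of the libraries was the same as for miR-148a-3p.

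miR-152-3p, processed from the Copz2 locus, was instead higher in vesicles than in cells. It had 48775 reads (0.748%) in RC-cells, 19672 reads (1.77%) in RC-MVs, 45425 reads (0.613%) in GC-cells and 12745 reads (1.30%) in GC-MVs. Both vesicle libraries were above both cell libraries, and the rank of miR-152-3p was 9 in RC-MVs and 7 in GC-MVs against 18 and 20 in the cells.

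The passenger strands of Mir148a and Mir152 were also higher in vesicles. miR-148a-5p had 6788 reads (0.104%) in RC-cells, 12424 reads (1.12%) in RC-MVs, 6284 reads (0.0848%) in GC-cells and 2858 reads (0.291%) in GC-MVs. miR-152-5p had 1682 reads (0.0258%), 1586 reads (0.143%), 1643 reads (0.0222%) and 402 reads (0.0409%) in the same order. For both strands RC-MVs stood highest and the cell libraries lowest. miR-148b-5p was the least abundant product of the family, with 194, 21, 228 and 29 reads in that order, and its shares lay between 0.00189% and 0.00308% with overlapping Wilson intervals between vesicles and cells of each zone.

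**Figure D1:**
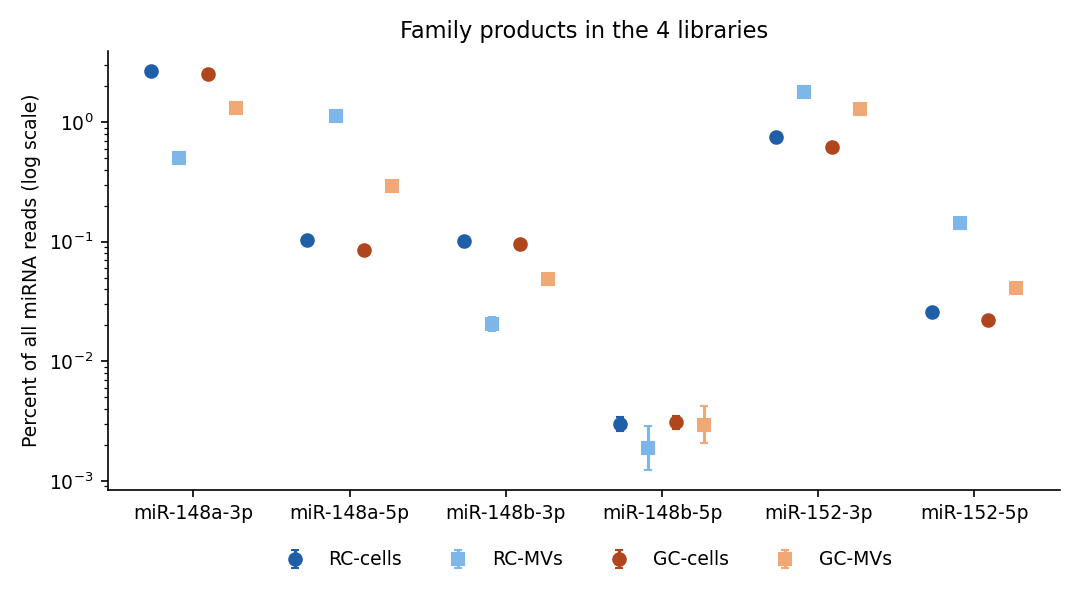
Percent of all miRNA reads on a log scale for the 6 family products in the 4 libraries, with circles for cells, squares for MVs and bars for the 95% Wilson interval (counting error only, often smaller than the symbol). miR-148a-3p and miR-148b-3p lie lower in MVs than in cells, whereas miR-152-3p, miR-148a-5p and miR-152-5p lie higher.

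In the resting zone the guides parted in their vesicle-to-cell ratio. In RC-MVs miR-148a-3p had a share 5.35-fold below that in RC-cells (exact Clopper-Pearson interval from 5.21 to 5.50), and that of miR-148b-3p was 4.97-fold lower (4.35 to 5.70). miR-152-3p instead had a 2.37-fold larger share in the vesicles (2.33 to 2.41). The passenger strands miR-148a-5p and miR-152-5p were 10.8-fold (10.4 to 11.1) and 5.54-fold higher (5.17 to 5.94). For miR-148b-5p the vesicle-to-cell ratio stood at 0.636 and its interval ran from 0.385 to 1.00.

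With a difference called at 2-fold in either direction, 3 of the 6 products were higher and 2 lower in vesicles of the resting zone. Of all 414 miRNAs with reads in both libraries, 33.6% were called higher and 30.4% lower. Over the 293 with 10 or more reads in each library, these were 34.5% and 28.3%, and the counts of the family did not change. The median log2 ratio was 0.30 over the 6 products and 0.08 over all miRNAs tested. By their ratio, miR-148a-5p ranked 30 and miR-152-5p 55 of the 414, miR-152-3p 125, miR-148b-5p 265, miR-148b-3p 352 and miR-148a-3p 360. The products were thus spread over the range, and their counts of calls were near the shares over all miRNAs.

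In the growth zone the guides kept the same directions with smaller differences for the miR-148 guides. The share of miR-148a-3p was 1.92-fold lower in GC-MVs than in GC-cells (1.89 to 1.96) and that of miR-148b-3p 1.96-fold lower (1.78 to 2.15). The shares of miR-152-3p and miR-148a-5p were larger in the vesicles, by 2.12-fold (2.08 to 2.16) and 3.43-fold (3.28 to 3.59). miR-152-5p was 1.85-fold higher (1.65 to 2.06), and miR-148b-5p had a ratio of 0.960 with an interval from 0.629 to 1.42.

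At 2-fold, 2 of the 6 products were higher and 0 lower in GC-MVs, where 32.1% of 417 miRNAs were higher and 25.2% lower (30.2% and 22.2% of the 275 with at least 10 reads in both). The median log2 ratio was 0.41 over the 6 products and 0.13 over all miRNAs tested. The calls of the guides were close to the threshold and depended on the scaling of the libraries, whereas miR-148a-5p passed 2-fold under each scaling tried. With edgeR's TMM normalization the log2 ratios of GC-MVs to GC-cells were -1.17 for miR-148a-3p, -1.19 for miR-148b-3p and 0.86 for miR-152-3p, so that both miR-148 guides passed 2-fold and miR-152-3p did not. The directions of the 3 guides did not depend on it, while that of miR-148b-5p turned from a log2 ratio of -0.06 to 0.04 with totals taken without 3 abundant miRNAs.

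**Figure D2:**
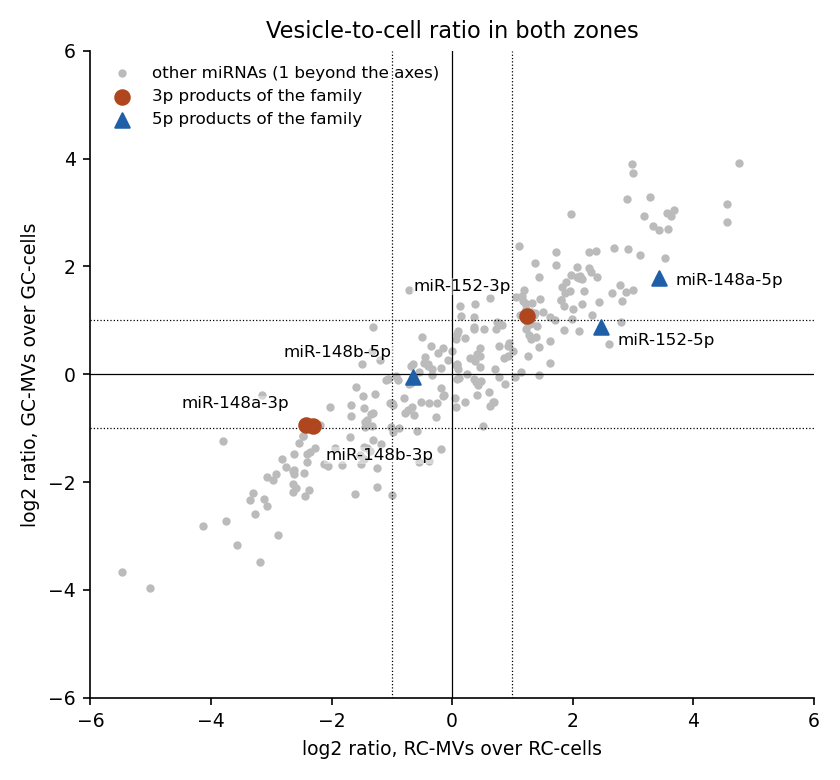
Each point is a miRNA with at least 10 reads in all 4 libraries (262 miRNAs), with the log2 ratio of RC-MVs to RC-cells on the x axis and of GC-MVs to GC-cells on the y axis; dotted lines mark 2-fold, and miR-122-5p lies beyond the axes. miR-148a-3p and miR-148b-3p lie next to each other at -2.42 and -2.31 on the x axis, miR-152-3p lies at 1.25 and miR-148a-5p at 3.43.

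A ratio of counts within a library does not depend on how libraries are scaled, and it gave the same separation. In cells there were 3.57 reads of miR-148a-3p for each read of miR-152-3p in RC-cells, and 4.13 in GC-cells. In RC-MVs the order was turned, with 3.55 reads of miR-152-3p for each read of miR-148a-3p. In GC-MVs both were nearly equal, at 1.02 reads of miR-148a-3p for each read of miR-152-3p. The odds of miR-152-3p against miR-148a-3p were therefore 12.7-fold greater in vesicles than in cells of the resting zone (Woolf interval from 12.3 to 13.1) and 4.07-fold greater in those of the growth zone (3.96 to 4.18).

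The same odds against miR-148b-3p were 11.8-fold higher in RC-MVs (10.3 to 13.5) and 4.14-fold higher in GC-MVs (3.77 to 4.55). By contrast, the miR-148 guides held a nearly constant proportion to each other. The number of miR-148a-3p reads for each miR-148b-3p read was 26.2 in RC-cells against 24.3 in RC-MVs, and 26.5 in GC-cells against 27.0 in GC-MVs. The odds between RC-MVs and RC-cells were 0.928 with an interval from 0.811 to 1.06, and between GC-MVs and GC-cells 1.02 with an interval from 0.927 to 1.12. The interval of these odds held 1 in all 4 comparisons, including those between zones. Whether reads exchanged between these guides in the alignment had a part in this proportion was not tested.

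The proportions of the guides that carry the seed thus differed between vesicles and cells, and the leading guide differed in RC-MVs. Of all guide reads with the seed CAGUGCA, miR-148a-3p made up 75.9% in RC-cells against 21.8% in RC-MVs, and 78.1% in GC-cells against 49.5% in GC-MVs. miR-152-3p made up 21.2% against 77.3%, and 18.9% against 48.7%, and miR-148b-3p between 0.896% and 2.94%. The summed share of the 3 guides moved less than that of its parts. It was 3.53% of all miRNA reads in RC-cells against 2.29% in RC-MVs, and 3.24% in GC-cells against 2.66% in GC-MVs, which is 1.54-fold lower in RC-MVs and 1.22-fold lower in GC-MVs than in the cells.

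**Figure D3:**
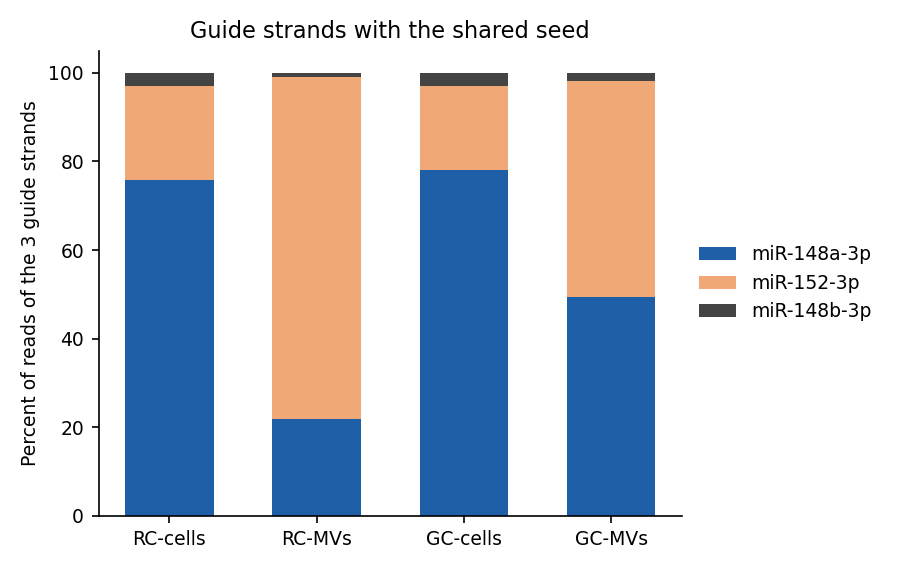
Stacked bars give each guide strand as a percent of the reads of the 3 guides in a library, from 0 to 100. miR-148a-3p fills most of the bar in both cell libraries, miR-152-3p fills 77.3% of it in RC-MVs, and both are near 49% in GC-MVs.

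Arm use was compared as the percent of 5p reads among both arms of a hairpin, which is also free of library scaling. For Mir148a the 5p arm was 3.75% of the reads in RC-cells (Wilson interval from 3.66% to 3.84%) and 3.24% in GC-cells. It was 69.2% in RC-MVs (68.5% to 69.8%) and 18.1% in GC-MVs (17.5% to 18.7%). In RC-MVs the passenger strand was therefore the more abundant arm, with 2.24 reads for each read of miR-148a-3p, whereas the guide was ahead 25.7-fold in RC-cells, 29.9-fold in GC-cells and 4.53-fold in GC-MVs.

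The odds of the 5p arm of Mir148a were 57.6-fold greater in vesicles than in cells of the resting zone (55.3 to 59.9) and 6.59-fold greater in those of the growth zone (6.29 to 6.92). Among 90 hairpins with at least 10 reads of both arms in RC-MVs and RC-cells, this ranked 2 by gain of the 5p arm, and among 78 hairpins of the growth zone it ranked 5. A 5p gain of at least 2-fold was common, at 40% of the 90 hairpins and 24.4% of the 78, while a loss of that size was found for 34.4% and 32.1%. A different major arm in vesicles and cells was found for 20% of the 90 hairpins and 11.5% of the 78. Between RC-cells and GC-cells only 2.14% of 140 hairpins gained the 5p arm by 2-fold and 2.86% differed in major arm, and 0 of the 3 hairpins of the family did either. Between RC-MVs and GC-MVs, 25.7% of 74 hairpins gained the 5p arm, 18.9% lost it and 13.5% differed in major arm, and Mir148a ranked 1 by gain, with odds 10.2-fold greater in RC-MVs (9.64 to 10.7).

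The other hairpins of the family shifted less. The 5p arm of Mir152 was 3.33% of the reads in RC-cells against 7.46% in RC-MVs, and 3.49% in GC-cells against 3.06% in GC-MVs. Its odds were 2.34-fold greater in the vesicles of the resting zone (2.18 to 2.51), while in the growth zone they were 1.15-fold lower in GC-MVs (1.03 to 1.28). The 5p arm of Mir148b was 2.83% against 8.43%, and 3.12% against 5.71%, with vesicle values that rest on 21 and 29 reads, and its odds were 3.16-fold (1.98 to 5.06) and 1.88-fold higher in vesicles (1.26 to 2.79). All 3 hairpins gave 5p shares between 2.83% and 3.75% in the cells.

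**Figure D4:**
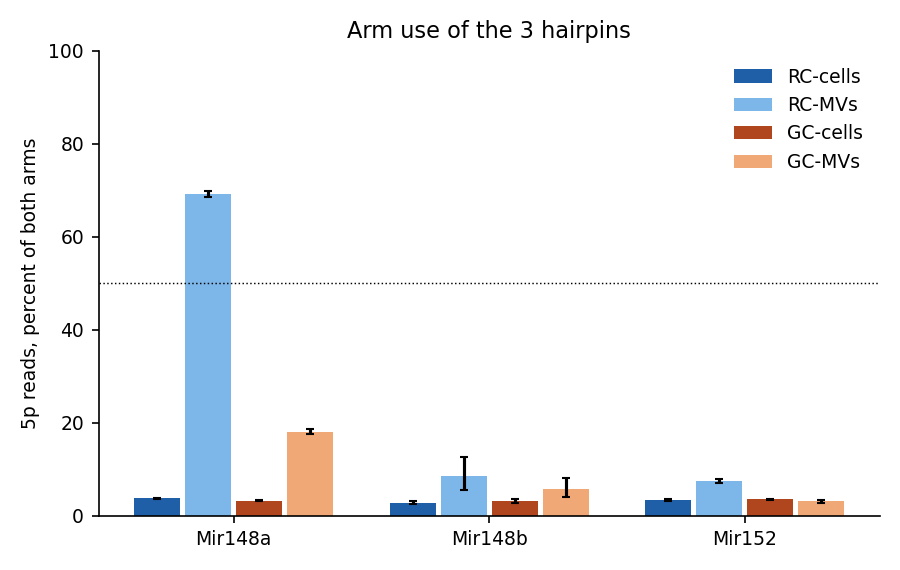
Bars give the 5p reads as a percent of both arms of each hairpin, with the 95% Wilson interval (counting error only) and a dotted line at equal arms. Only the bar of Mir148a in RC-MVs, at 69.2%, passes the line, and in the cells all bars lie between 2.83% and 3.75%.

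Between the zones, the family differed in vesicles and little in cells. In RC-cells against GC-cells the 6 products had ratios from 0.968 for miR-148b-5p to 1.23 for miR-148a-5p, and 0 of them reached 2-fold, where 13.7% of 474 miRNAs were higher and 5.7% lower in RC-cells (10.6% and 2.64% of the 379 with at least 10 reads in both). The sign of these small ratios turned with the scaling for 5 of the 6 products, all but miR-148b-5p, for example from log2 0.08 to -0.26 under TMM for miR-148a-3p, and for miR-152-3p from 0.29 to -0.05. In RC-MVs against GC-MVs, 2 products were called higher and 2 lower, against 24.7% and 14.6% of 397 miRNAs (23.6% and 12.2% of the 271 with at least 10 reads in both).

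The products lower in RC-MVs than in GC-MVs were miR-148a-3p, by 2.64-fold (2.55 to 2.72), and miR-148b-3p, by 2.37-fold (2.02 to 2.79). The products higher in RC-MVs were miR-148a-5p, by 3.85-fold (3.70 to 4.01), and miR-152-5p, by 3.50-fold (3.13 to 3.91). The share of miR-152-3p in RC-MVs exceeded that in GC-MVs 1.37-fold (1.34 to 1.40), a direction that turned to a log2 ratio of -0.18 with library totals taken without the abundant miR-21-5p, miR-143-3p and miR-22-3p. Those totals shift every log2 ratio of RC-MVs to GC-MVs by -0.63. With them the ratio was -2.03 for miR-148a-3p, -1.88 for miR-148b-3p, 1.32 for miR-148a-5p, 1.18 for miR-152-5p and -1.27 for miR-148b-5p, so that 3 products were called lower in place of 2. The arms of Mir148a differed between the vesicles of the zones in opposite directions under each scaling tried.

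The vesicle-to-cell log2 ratio of miR-148a-3p was -2.42 for RC and -0.94 for GC, 2.79-fold apart. Those of miR-148b-3p were 2.54-fold apart, those of miR-148a-5p 3.13-fold and those of miR-152-5p 3.0-fold, and for each of these products the ratio lay farther from 1 in the resting zone. For miR-152-3p the log2 ratios were 1.25 and 1.08, which is 1.12-fold apart.

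The spread of the guides was set beside that of other miRNAs with a common seed. Of the 740 names, 660 had a RefSeq sequence, and miRNAs with fewer than 10 reads in any of the 4 libraries were left out before grouping. This gave 7 groups of at least 3 miRNAs with the same bases 2 to 8, 29 miRNAs in all. A group can thus lack members of its seed. In the resting zone the log2 vesicle-to-cell ratios of the guides of miR-148 and miR-152 spanned 3.67, against a median of 1.74 over the 7 groups. Only the let-7 guides with miR-98-5p, a group of 9, spanned more, at 4.63, and the group of miR-17-5p, miR-20a-5p, miR-93-5p and miR-106b-5p followed at 3.0. At the other end, miR-34a-5p, miR-34b-5p and miR-34c-5p spanned 0.19.

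In the growth zone the span of the guides of miR-148 and miR-152 was 2.05, the third of the 7, behind the let-7 guides at 4.57 and the miR-17-5p group at 2.86. In the resting zone 2 of the 7 groups, this family and the let-7 guides, held both a member at least 2-fold higher and a member at least 2-fold lower in vesicles. In the growth zone this held for 1 of the 7 groups, the let-7 guides. The groups differ in size, which widens the span of larger groups, and they share the same libraries.

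**Figure D5:**
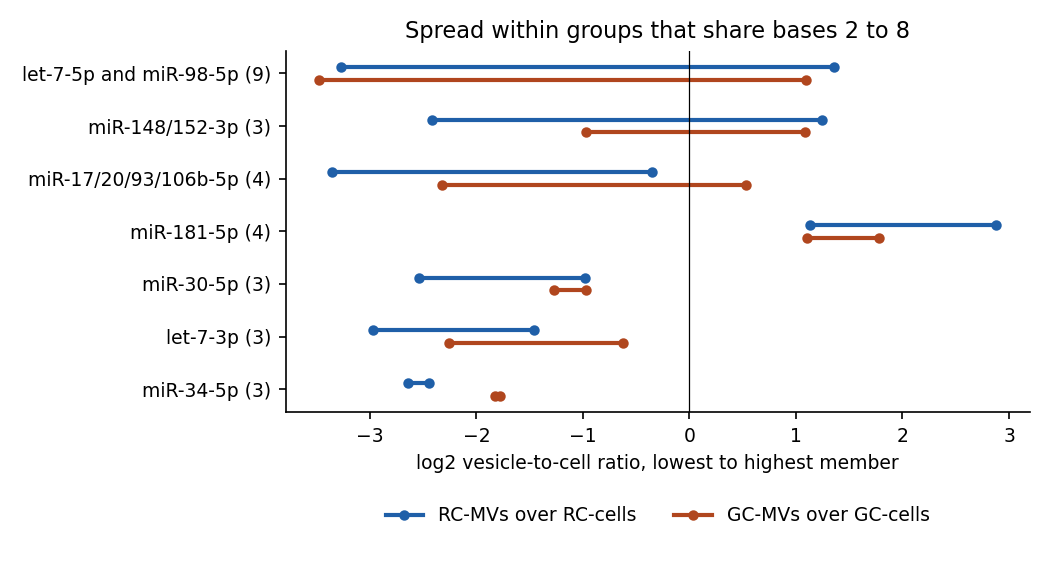
Lines run from the lowest to the highest log2 vesicle-to-cell ratio within each group of miRNAs that share bases 2 to 8, with the number of members in brackets, for the resting zone (blue) and the growth zone (red). The guides of miR-148 and miR-152 span 3.67 and 2.05 and cross 0 in both zones, whereas the miR-34-5p group spans 0.19 and 0.04.

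The likeness of profiles was measured as the Euclidean distance between log2 percents, centred over the 4 libraries, for 131 miRNAs with at least 100 reads in each. The miRNA nearest to miR-148a-3p was miR-148b-3p, at a distance of 0.12 with 0 of the other miRNAs nearer. miR-152-3p was at 3.13 from miR-148a-3p, with 90 miRNAs nearer, and miR-148a-5p at 4.90, with 124 nearer. Outside the family, miR-30c-5p was nearest to miR-148a-3p (0.34) and to miR-148b-3p (0.31), followed for both by miR-7a-5p at 0.45 and 0.41. The third was miR-92a-3p for miR-148a-3p (0.68) and let-7i-5p for miR-148b-3p (0.57).

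The nearest to miR-152-3p were miR-99b-3p (0.11), miR-193b-3p (0.22) and miR-652-3p (0.30). The share of miR-99b-3p was 0.0194% in RC-cells against 0.0482% in RC-MVs, and 0.0149% in GC-cells against 0.0332% in GC-MVs, the same order as miR-152-3p at a lower level. The nearest to miR-148a-5p were miR-370-3p (0.47), miR-540-3p (0.62) and miR-770-3p (0.63), all products of the imprinted Dlk1-Dio3 region. These distances rest on 4 libraries and describe no more than their order and spread.

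Other miRNAs known to repress chromatin enzymes were taken from a list of 11, of which 10 were in the counts. The list held the miR-29 guides, which target DNMT3A and DNMT3B, miR-185-5p, which targets DNMT1, miR-101 and miR-26 guides, which target EZH2, and miR-140-5p, miR-1-3p and miR-206-3p, which target HDAC4. In the resting zone 2 of 9 with reads in both libraries passed 2-fold upward in vesicles and 5 downward, with a median log2 ratio of -1.47, where 33.6% and 30.4% of all miRNAs did. In the growth zone 3 of 10 were higher and 4 lower, with a median of -0.37, against 32.1% and 25.2% of all miRNAs. miR-26a-5p was at 0.906% in RC-cells and 0.0921% in RC-MVs, and miR-185-5p at 0.0358% and 0.155%. Of these examples from the list, miR-185-5p was thus higher in resting zone vesicles, as miR-152-3p was, and miR-26a-5p lower, as the miR-148 guides were. In GC-cells and GC-MVs, miR-185-5p was at 0.0297% and 0.0517%, short of 2-fold, and miR-26a-5p at 0.697% and 0.152%.

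Base composition moved with the vesicle-to-cell ratio over all miRNAs. Across 265 miRNAs with at least 10 reads in RC-MVs and RC-cells, the percent of G and C in the mature sequence and the log2 ratio had a Pearson r of 0.54 and a Spearman rho of 0.56. Across 251 miRNAs in the growth zone these were 0.48 and 0.51. The miRNAs share the same libraries and are no replicates. In the family the percent of G and C was 47.8% in miR-152-5p, 47.6% in miR-152-3p, 43.5% in miR-148a-5p, 42.9% in miR-148a-3p and 40.9% in miR-148b-3p. The part of base composition in these results was not tested.

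Some markers of other cells and of serum also differed between vesicles and cells. Of 7 listed blood cell miRNAs, 6 were in the counts and their summed share was 0.00124% in RC-cells against 0.0885% in RC-MVs, and 0.00121% in GC-cells against 0.190% in GC-MVs. All 6 passed 2-fold toward RC-MVs, as 33.6% of all miRNAs did. Those calls rest on few reads in RC-cells, from 1 for miR-223-3p to 59 for miR-150-5p. In GC-cells miR-223-3p was at 0 reads. Of the liver and serum list, miR-122-5p was at 0.000491% against 0.401%, and 0.000459% against 1.14%, while the summed share of that list of 3, most of it miR-122-5p in vesicles, was 0.0284% against 0.418%, and 0.0393% against 1.18%. The other members were not higher in RC-MVs, with miR-192-5p at 0.0238% in RC-cells against 0.0162% in RC-MVs, and 0.0338% in GC-cells against 0.0347% in GC-MVs. miR-194-5p was at 0.00413% against 0.000902%, and 0.00506% against 0.00265%. The 3 muscle miRNAs summed to 0.000368% against 0.00162%, and 0.000701% against 0.00662%, and miR-1-3p had 0 reads in RC-MVs. In the growth zone 3 of 3 were called higher in vesicles, where 32.1% of all miRNAs were, and in the resting zone the 1 with reads in both libraries was. No muscle miRNA had more than 29 reads in a library. In these libraries the summed blood and liver markers were higher in GC-MVs than in RC-MVs, as miR-148a-3p and miR-148b-3p were. miR-148a-5p and miR-152-5p were instead higher in RC-MVs, and the interval of miR-148b-5p held a ratio of 1 (0.348 to 1.16). For miR-152-3p the log2 ratio of RC-MVs to GC-MVs was 0.45 by percents and -0.18 with totals without the 3 most abundant miRNAs. The part of RNA from such sources in the values of the family was not tested.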

How the data were processed

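Small RNA was sequenced from chondrocytes and MVs of both zones, 1 library each, on an Illumina HiSeq. The authors used Bowtie2 and the rat build Rnor_6.0 for alignment, tabulated them per annotated mature miRNA with miARma-Seq, and deposited raw counts. How reads were trimmed and how those matching more than one locus were treated is not given in the sources used here.

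Counts of the 774 loci were added by mature name, which gave 740 names, and divided by the library total, as in the study. Ratios of percents carry exact Clopper-Pearson intervals, shares Wilson intervals and odds Woolf intervals, all at 95%. PCR copies count as separate reads, so intervals cover counting error only. A difference was called at 2-fold with at least 1 read in both libraries. With 1 library per group the planned comparisons have no test, and the code for ratios and their intervals was tested on simulated data. Alternatives were TMM and size factors, totals without 3 abundant miRNAs, a pseudocount of 0.5, minimum reads of 10 or 100, 4-fold, intervals beyond 2-fold, loci kept apart and thinning to the smallest total in 20 draws.

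The members and lists were chosen with earlier results of these data known. Named were all products of the family, the 3 nearest profiles of each guide and of miR-148a-5p, the seed groups with the widest span and next to this family in span, the marker lists (cartilage, liver and serum, blood cells, muscle) and the list for chromatin enzymes. The cartilage list had 6 miRNAs, 4 with reads in both RC-MVs and RC-cells, of which 1 was at least 2-fold higher and 2 lower in RC-MVs, where 33.6% and 30.4% of all miRNAs were, and in the growth zone 0 of 4 were higher and 2 lower, against 32.1% and 25.2%. The miR-34-5p group was named as the narrowest after its values were seen. The PCR array, RT-qPCR and RNA classes were not used here. Python 3.11.15, numpy 2.4.6, pandas 2.3.3, scipy 1.17.1, matplotlib 3.10.9, R 4.3.3, edgeR 4.0.16 and DESeq2 1.42.0 were used.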

Additional observations from a re-analysis of the deposited data

Results flagged for a closer look

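The zone ratio of the miR-148 guides pointed in opposite directions in vesicles and cells. For miR-148a-3p the log2 ratio of RC-MVs to GC-MVs was -1.40 and that of RC-cells to GC-cells was 0.080, and for miR-148b-3p these were -1.25 and 0.10. Each value rests on 1 library per group and the difference was not tested. The values in the cells were -0.26 and -0.24 under TMM, and also below 0 with size factors and with totals without 3 abundant miRNAs, so that the opposite directions were seen with percents alone, while the vesicle values were -1.60 and -1.45.

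The log2 odds of the 5p arm of Mir152 were 1.23 in RC-MVs against RC-cells and -0.20 in GC-MVs against GC-cells. These also lie on opposite sides of 0, in 1 library per group, and the difference was not tested. The odds do not depend on the scaling.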

How the results depend on the processing

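No paired analysis was run. Vesicles and cells could be paired by zone, but with 1 library per group such a pairing would leave very little to estimate a spread from. The comparisons reported here, each of 1 library against 1, have no pairs. No result past 2-fold changed sign under any alternative run. The odds of the arms moved by less than their counting error with a pseudocount of 0.5, and the span of the guides was the same under each scaling, since ratios of reads within a library do not depend on it. TMM moved all log2 ratios by -0.09 for RC and -0.22 for GC, size factors by -0.04 and -0.15, and totals without the 3 abundant miRNAs by -0.21 and 0.10. With TMM, size factors and those totals, in that order, the log2 ratio of vesicles to cells became -2.51, -2.46 and -2.63 for miR-148a-3p in the resting zone and -1.17, -1.09 and -0.84 in the growth zone. For miR-152-3p it became 1.15, 1.21 and 1.03 in the resting zone and 0.86, 0.93 and 1.18 in the growth zone. For miR-148a-5p it became 3.34 with TMM and 3.22 with those totals in the resting zone, and 1.55, 1.63 and 1.88 in the growth zone. For miR-148b-3p it became -2.52 with those totals in the resting zone, and -1.19 with TMM and -1.12 with size factors in the growth zone. The products at least 2-fold higher in GC-MVs than GC-cells numbered 1 with TMM, 1 with size factors and 0 at 4-fold, in place of 2, and the products lower numbered 2 with TMM and 2 with size factors, in place of 0. At 4-fold, 0 products were higher and 0 lower in RC-MVs than GC-MVs, in place of 2 and 2. In RC-MVs against RC-cells, 2 products were higher at 4-fold in place of 3, and 2 were lower at either threshold. The difference between zones in the vesicle-to-cell log2 ratio of miR-152-3p was 0.16 and turned to -0.15 with totals without the 3 abundant miRNAs. With at least 100 reads, 4 seed groups were left and this family was 2 by span in both zones. Depth limits miR-148b-5p most, at 21 reads in RC-MVs.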
